A study of Mus musculus with 46 samples.

Results

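The nuclear genes for the subunits of the mitochondrial respiratory chain were followed in hearts that lose lamin A/C. Members were the genes of the count table whose names begin as those of subunits do (Nduf with a, b, c, s or v, Sdha to Sdhd, Uqcr, Cox4 to Cox8 and Atp5). Names of pseudogenes were left out, and a mean of at least 1 CPM (counts scaled to an equal library size) in either of the library kits was required. Of 55359 genes, 104 had such a name, 13 of these were pseudogenes, 7 lay under the minimum and 84 remained: 36 of complex I, 4 of complex II, 8 of complex III, 19 of complex IV and 17 of complex V, the ATP synthase. All 84 were abundant enough to be tested in both kits. Ndufa4 and its paralog Ndufa4l2 carry names of complex I but are counted here with complex IV, where the Ndufa4 protein sits. Cox7a2l, also counted there, encodes a factor that joins complexes III and IV.

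The respiratory chain passes electrons from NADH (complex I) and succinate (complex II) through ubiquinone to complex III, then by cytochrome c to complex IV, which hands them to oxygen. Complexes I, III and IV pump protons across the inner mitochondrial membrane, and complex V uses the gradient to make ATP. Heart muscle depends on this chain for its work, and most of the subunits are encoded in the nucleus, the rest in the mitochondrial genome. Promoters of nuclear subunit genes often carry sites of the factors NRF1, ERR (estrogen-related receptors), YY1 and the ETS factor GABP.

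Hearts of adult mice were sequenced in 46 libraries. All mice carried Myh6MCM Tg/0, a Cre that acts in cardiomyocytes after tamoxifen, so other cells of the heart keep Lmna (the NEBNext labels of F/F mice spell it My6MCM). All received tamoxifen at 6 to 8 weeks of age, on 4 days, 100 µL a day of a 4 mg/mL solution in corn oil, and hearts were perfused with 100 mM KCl when collected. The 26 NEBNext libraries cover Lmna F/F and Lmna +/+ mice at 1 week (4 and 5 libraries), 11 days (2 and 3) and 2 weeks (5 and 7) after tamoxifen, here called F/F and wild type. The 20 QuantSeq libraries are all from 2 weeks: Lmna F/+ and F/F mice with cGas +/+ (6 and 6 libraries) and with cGas null/null (4 and 4), where the controls carry a floxed Lmna allele that the NEBNext controls lack. The title of each library holds a different number after the word heart, but no label states that this number is a mouse. All groups but F/+ without cGas hold libraries of both sexes, so those groups do not come from a single mouse. P-values rest on the spread between libraries, part of which may be technical.

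Motifs in the promoters of these genes are described first, and their part in the levels below was not tested. RefSeq promoter windows (GRCm38.p6, 250 bases before to 50 after the start of the gene) were matched by symbol for 68 of the 84 members. Both strands were searched for 5 motifs. The NRF1 motif (GCGCA, any base, then GCGC) was found for 17 of 68 members (25%), against 5.19% of the 27025 genes with a window and 10.4% of the 11358 other genes tested. The YY1 motif AAGATGGC was found for 10 members (14.7%, against 3.19% and 4.72%) and the ERR half-site AAGGTCA for 8 (11.8%, against 5.38% and 4.08%). The ETS motif CCGGAAGT, at 5 members (7.35%), and the Sp1 motif GGGCGGGG, at 12 (17.6%), were no more frequent than among the other genes tested (8.24% and 35.5%). At least 1 of the NRF1, ERR and YY1 motifs was present for 29 of 68 members (42.6%) and 18% of the other genes tested. A match is a string of letters in a window, not a bound site. The 250 bases before the start are printed for 5 members, 5′ to 3′ on the strand of the gene, with matches to these motifs in capitals. Sdhd, Atp5g3, Ndufb4 and Cox6a1 show NRF1 and ERR letters in members that did and did not fall at 2 weeks, and Cox7a1, a muscle isoform with a larger fall, has none of the 5 motifs. Sdhd has a further ERR match and Atp5g3 an NRF1 match in the last 50 bases of the window, which are not printed.
Sdhd (chr9:50603850-50604099, minus strand): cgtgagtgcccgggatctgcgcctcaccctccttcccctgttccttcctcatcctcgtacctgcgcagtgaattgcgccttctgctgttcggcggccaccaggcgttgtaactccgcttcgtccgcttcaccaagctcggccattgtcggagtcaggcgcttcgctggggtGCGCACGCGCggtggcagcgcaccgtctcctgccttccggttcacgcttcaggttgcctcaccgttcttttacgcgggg
Atp5g3 (chr2:73911327-73911576, minus strand): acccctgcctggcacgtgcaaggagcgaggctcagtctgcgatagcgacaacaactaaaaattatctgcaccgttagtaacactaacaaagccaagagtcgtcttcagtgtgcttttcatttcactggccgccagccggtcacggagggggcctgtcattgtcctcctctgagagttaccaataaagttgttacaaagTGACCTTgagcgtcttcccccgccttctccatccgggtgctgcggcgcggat
Ndufb4 (chr16:37654369-37654618, minus strand): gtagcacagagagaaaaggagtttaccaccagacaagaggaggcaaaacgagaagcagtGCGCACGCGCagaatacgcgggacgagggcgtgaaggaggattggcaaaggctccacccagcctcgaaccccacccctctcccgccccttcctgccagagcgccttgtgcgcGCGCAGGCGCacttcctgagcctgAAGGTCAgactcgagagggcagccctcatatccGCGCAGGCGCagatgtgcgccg
Cox6a1 (chr5:115348959-115349208, minus strand): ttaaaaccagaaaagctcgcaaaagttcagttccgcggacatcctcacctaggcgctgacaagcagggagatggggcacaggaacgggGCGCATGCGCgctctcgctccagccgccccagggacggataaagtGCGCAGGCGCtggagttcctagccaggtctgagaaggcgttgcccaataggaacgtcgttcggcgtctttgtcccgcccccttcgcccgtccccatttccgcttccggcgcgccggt
Cox7a1 (chr7:30183921-30184170, plus strand): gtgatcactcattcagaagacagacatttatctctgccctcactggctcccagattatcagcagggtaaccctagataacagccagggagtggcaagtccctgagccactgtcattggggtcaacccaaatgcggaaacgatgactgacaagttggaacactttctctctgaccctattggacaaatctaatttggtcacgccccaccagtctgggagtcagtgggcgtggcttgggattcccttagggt

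Lmna itself was checked before the members. It was lower in F/F hearts at 1 week, at 33.3 ± 4.38 normalised CPM against 59.0 ± 9.22 in wild type (SD, n = 4 and 5), and the ranges did not overlap. At 2 weeks F/F libraries ran from 42.2 to 108 CPM and overlapped with wild type (105 to 125), and at 11 days it did not separate the libraries (58.3 and 58.4 against 52.1 to 118), which are called labelled F/F below. In QuantSeq it overlapped in both cGas backgrounds, and a 3′ tag may lie outside the deleted part, so it checks nothing there. Total counts were 8477358 to 25856892 per NEBNext library and 22099181 to 33993289 per QuantSeq library. Cardiomyocyte markers were abundant in every library, and the summed level of 7 atrial markers varied widely, from 95.6 to 3979.7 normalised CPM. Among wild type libraries of 11 days, replicate 1 stood apart, with the members summing to 200694 CPM against 105632 and 123371 in the others. Among F/+ hearts without cGas, replicate 1 did so, at 113427 CPM against 55653 to 58387.

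The subunits of all 5 complexes fell together in F/F hearts at 2 weeks in the NEBNext libraries. Of 84 members, 71 were lower and 0 higher by edgeR (adjusted p under 0.05), where 13% of the 15627 genes tested were lower. The median log2 fold change was -0.60 over the members and 0.04 over all genes tested. Summed over the members, F/F libraries were at 60809, 58029, 38122, 51059 and 52877 normalised CPM, and wild type libraries ran from 75003 through a median of 79374 to 87201. No F/F library reached the lowest wild type library. In 36 members the 5 F/F libraries all lay below the 7 wild type libraries, against 5.68% of all genes tested. Whole hearts were measured and CPM are relative to all counts. Fewer cardiomyocytes, less RNA per cardiomyocyte and more RNA from other cells therefore cannot be told apart.

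**Figure D1:**
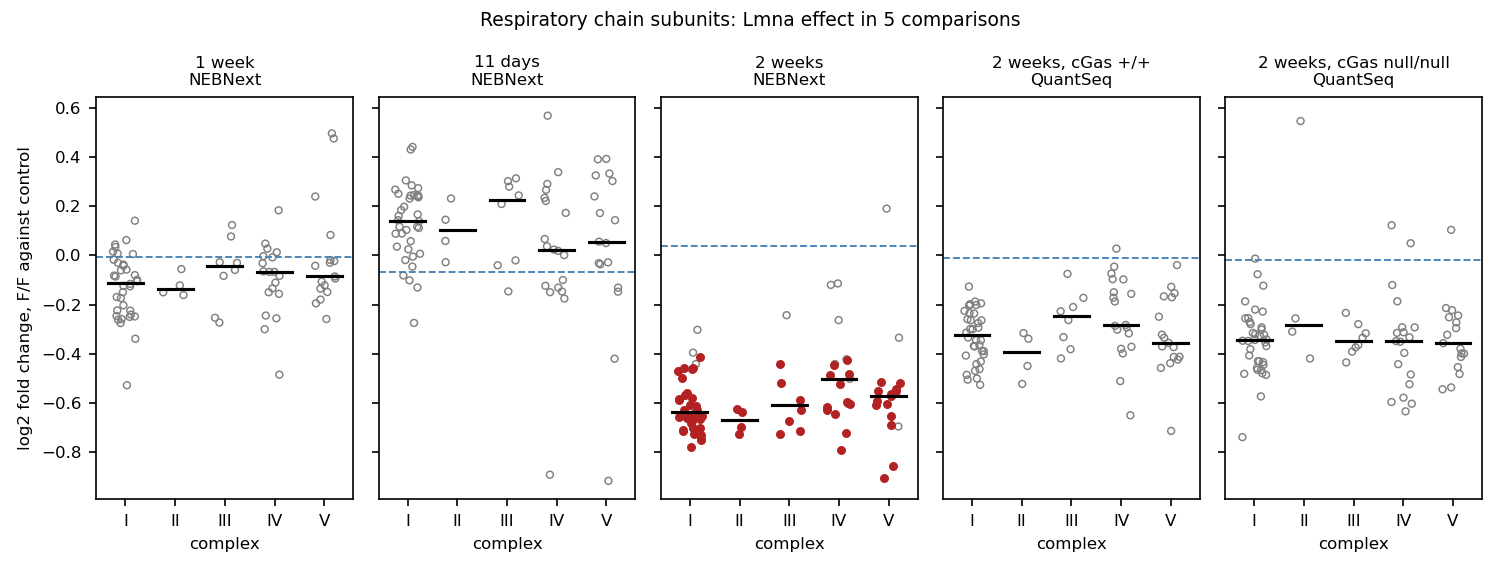
Log2 fold change (F/F against the control of the same set) of each member by complex, in 5 comparisons. Filled red points passed edgeR at an adjusted p under 0.05, open points did not, black bars are medians and the dashed line is the median of all genes tested. Members passed only at 2 weeks in NEBNext, where the medians by complex run from -0.67 to -0.50.

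Complex I, which takes electrons from NADH, fell in 33 of its 36 members (median -0.64). All 7 core subunits in the list, which carry the flavin and the iron-sulphur clusters, were lower, with a median of -0.73, and 26 of 29 accessory subunits were lower, with a median of -0.61. Ndufs3, a core subunit, was at 120.1, 125, 98.8, 156 and 140.3 CPM in F/F and ran from 166 through 189 to 243 in wild type. The groups did not overlap, and Ndufs3 fell by 0.75 ± 0.13 (SE; edgeR adjusted p = 0.000154), the smallest p among the members. Ndufb10, an accessory subunit of the membrane arm, was at 755, 774, 468, 719 and 767 CPM in F/F and 943 through 1127 to 1362 in wild type. These groups did not overlap either, and Ndufb10 fell by 0.71 ± 0.14 (edgeR adjusted p = 0.000462). Ndufa6 fell by 0.73 ± 0.14 and Ndufa3 by 0.68 ± 0.15 (edgeR adjusted p = 0.000418 and 0.00137). Ndufv1, which binds the flavin, had the lowest fold change of the complex at -0.78 ± 0.19 (edgeR adjusted p = 0.00319; named after its value was seen). Ndufb4, Ndufb1 and Ndufa5 did not pass, the last 2 named, as is Atp5mpl below, to account for every member. Ndufb4 was at 83.9, 39.5, 21.9, 22.1 and 29.3 CPM in F/F and 28.9 through 65.8 to 74.8 in wild type. Its F/F replicate 1 was the highest of the 12 libraries and 2 F/F libraries were the lowest (log2 fold change -0.30 ± 0.23, edgeR adjusted p = 0.351).

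Complex II, succinate dehydrogenase, also works in the TCA cycle and has no mitochondrially encoded subunit. All 4 of its genes were lower, with a median of -0.67. Sdhb, the iron-sulphur subunit, was at 1265, 1284, 750.4, 958 and 1144 CPM in F/F and 1542 through 1851 to 2059 in wild type. The groups did not overlap, and Sdhb fell by 0.73 ± 0.14 (edgeR adjusted p = 0.000552). The membrane anchors Sdhc and Sdhd fell by 0.64 ± 0.13 and 0.70 ± 0.15, and Sdha, which carries the flavin, by 0.62 ± 0.18 (edgeR adjusted p = 0.000943, 0.00104 and 0.00926). Sdhd was at 602, 619, 377, 507 and 532 CPM in F/F and 736 through 909.6 to 974 in wild type, again without overlap.

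Complex III, which passes electrons from ubiquinol to cytochrome c, fell in 7 of 8 members (median -0.61). Uqcrfs1, the Rieske iron-sulphur protein, was at 804, 655, 459.7, 753 and 599 CPM in F/F and 1018 through 1073 to 1159 in wild type. The groups did not overlap, and Uqcrfs1 fell by 0.72 ± 0.17 (edgeR adjusted p = 0.00286). The small subunits Uqcrq and Uqcr10 fell by 0.67 ± 0.16 and 0.59 ± 0.14, and Uqcrh, the hinge protein, by 0.44 ± 0.15 (edgeR adjusted p = 0.0022, 0.00256 and 0.0249). Uqcrb did not pass: it was at 208, 148, 84.8, 93.4 and 110.3 CPM in F/F and 125 through 173 to 202 in wild type. F/F replicate 1 lay above every wild type library and 3 F/F libraries lay below them (log2 fold change -0.24 ± 0.19, edgeR adjusted p = 0.353).

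Complex IV, cytochrome c oxidase, fell in 13 of 19 members and had the median nearest to 0 of the 5 complexes (-0.50). Its muscle isoforms were among the members that fell. Cox6a2, the most abundant member per length, was at 3251, 3321, 1976, 2708 and 3059 CPM in F/F and 4131 through 4625 to 5050.4 in wild type. The groups did not overlap, and Cox6a2 fell by 0.65 ± 0.16 (edgeR adjusted p = 0.00378). Cox6a1, the isoform of most other tissues, was at 83.9, 123, 115, 135 and 128 CPM in F/F and 100.1 through 121 to 137 in wild type. The groups overlapped almost entirely and Cox6a1 did not pass (log2 fold change -0.12 ± 0.12, 95% interval -0.35 to 0.11, edgeR adjusted p = 0.471). On library totals alone and on deposited TPM the sign of its fold change turned (0.14 and 0.17).

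The other muscle isoforms moved alongside their partners. Cox7a1 was at 1158, 1309, 665, 814 and 908 CPM in F/F and 1350.0 through 1980.1 to 2078 in wild type. The groups did not overlap, and Cox7a1 fell by 0.79 ± 0.16 (edgeR adjusted p = 0.000672), while its partner Cox7a2 fell by 0.60 ± 0.18 (edgeR adjusted p = 0.0154). Cox8b fell by 0.72 ± 0.17 and its partner Cox8a by 0.52 ± 0.14 (edgeR adjusted p = 0.00226 and 0.00527). Both Cox4i1, the ubiquitous isoform of subunit 4, and Cox4i2, an isoform known from lung and low oxygen, were lower, by 0.63 ± 0.14 and 0.60 ± 0.13 (edgeR adjusted p = 0.00165 and 0.00151). Cox5b, Cox6b1, Cox7b and Ndufa4 fell by 0.61 ± 0.14, 0.49 ± 0.14, 0.48 ± 0.15 and 0.45 ± 0.16. The 6 members that did not pass were Cox6a1, Cox6b2, Cox6c, Cox6c2, Cox7c and Ndufa4l2, of which Cox6c was named to account for every member.

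The share of the muscle isoform in the mRNA of each pair is given as a description, with no test. By deposited TPM at 2 weeks, Cox7a1 was 76.9 ± 1.37% of Cox7a1 and Cox7a2 together in wild type (75.2 to 79.4%, n = 7) and 74.0 ± 0.855% in F/F (72.7 to 74.99%, n = 5). These ranges did not overlap, but wild type libraries of 1 week (72.5 to 74.9%) and 11 days (70.3 to 77.7%) reached the F/F values. At 1 week the mean share was higher in F/F (75.6%) than in wild type (74.0%). Cox6a2 was 97.0 ± 0.402% of its pair in wild type and 95.2 ± 1.33% in F/F, and Cox8b 92.7 ± 0.809% and 90.9 ± 2.18%. F/F replicate 1 lay inside the wild type range for both pairs, and replicate 2 for Cox8b, so these groups overlapped. In QuantSeq counts the ranges of all 3 shares overlapped between F/+ and F/F, with and without cGas. The rarer isoforms Cox4i2, Ndufa4l2 and Cox6b2 made up at most 0.630%, 1.29% and 0.238% of their pairs in any library of 2 weeks by TPM.

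**Figure D2:**
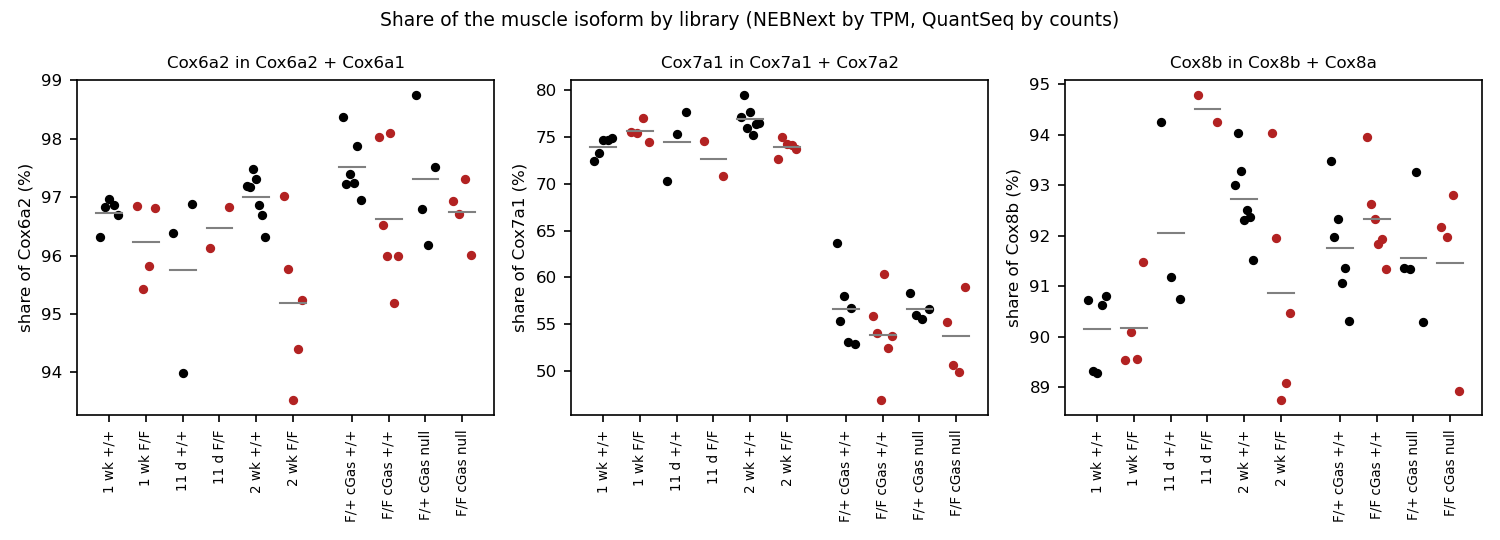
Share (%) of the muscle isoform in its pair in each library, by deposited TPM for NEBNext and by counts for QuantSeq, where axes do not start at 0 and grey bars are group means. Black points are control hearts (Lmna +/+ or F/+) and red points F/F. At 2 weeks in NEBNext the Cox7a1 share of F/F libraries (72.7 to 74.99%) lies below that of wild type (75.2 to 79.4%). Wild type libraries of 1 week (72.5 to 74.9%) lie near those F/F values.

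Complex V, which makes ATP, fell in 14 of 17 members (median -0.57). All 5 subunits of the catalytic F1 head and all 4 of the peripheral stalk were lower, with 2 of 3 c-ring genes and 3 of 5 small membrane subunits. Atp5b, the catalytic beta subunit, was at 5369, 4492, 3844, 5527 and 5243 CPM in F/F and 5775 through 6945 to 8904 in wild type. The groups did not overlap, and Atp5b fell by 0.59 ± 0.15 (edgeR adjusted p = 0.00471). Atp5d of the central stalk, Atp5o of the peripheral stalk and Atp5g3 of the c-ring fell by 0.60 ± 0.12, 0.61 ± 0.14 and 0.65 ± 0.17 (edgeR adjusted p = 0.00063, 0.00223 and 0.00487). Atp5md, a small membrane subunit, was at 38.0, 54.0, 11.8, 17.8 and 15.7 CPM in F/F and 28.9 through 61.1 to 68.2 in wild type. Its groups overlapped through F/F replicates 1 and 2, and Atp5md fell by 0.86 ± 0.20 (edgeR adjusted p = 0.00227). Atp5g1, another c-ring gene with low NEBNext counts, had the lowest fold change of all members (-0.90 ± 0.23, edgeR adjusted p = 0.00408, named after its value was seen). Atp5l, Atp5g2 and Atp5mpl did not pass. Atp5l, at 0.852 to 2.43 CPM in all 12 libraries, was the only member with a fold change above 0 (0.19 ± 0.22, edgeR adjusted p = 0.557), and it was -0.01 in pool KIUC035 alone.

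The size of the fall differed between F/F libraries and between sequencing pools. Relative to the mean of wild type, the median member of F/F replicates 1 and 2 (pool KIUC033) was at -0.40 and -0.39 on the log2 scale, and that of replicates 3, 4 and 5 (pool KIUC035) at -1.10, -0.76 and -0.64. Wild type libraries of pool KIUC035 were at -0.14 and -0.27, those of pool KIUC033 between 0.01 and 0.17. Within pool KIUC033 alone 16 members were lower (median -0.48, 2 F/F against 5 wild type libraries), where 1.04% of all genes tested were. Within pool KIUC035 54 were lower (median -0.67, 3 against 2), where 14.2% of all genes were. Replicate 3, with the deepest fall, had the highest sums of macrophage markers (4705 CPM) and fibroblast markers (6494). Macrophage sums of replicates 1, 2, 4 and 5 were 1039, 2599, 2231 and 3039 CPM. Their fibroblast sums were 1864, 4718, 3758 and 4002 CPM. Of 14 macrophage markers 13 rose at 2 weeks and of 10 fibroblast markers 7. Of all 15627 genes tested, 2537 passed as higher. Endothelial marker sums went the other way on average, at 1375 CPM in F/F (971 to 2363) against 1916 in wild type (1249 to 2437), and overlapped. Macrophage sums of F/F libraries (1039 to 4705 CPM) all exceeded those of wild type (591 to 902), and their part in the result was not tested.

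**Figure D3:**
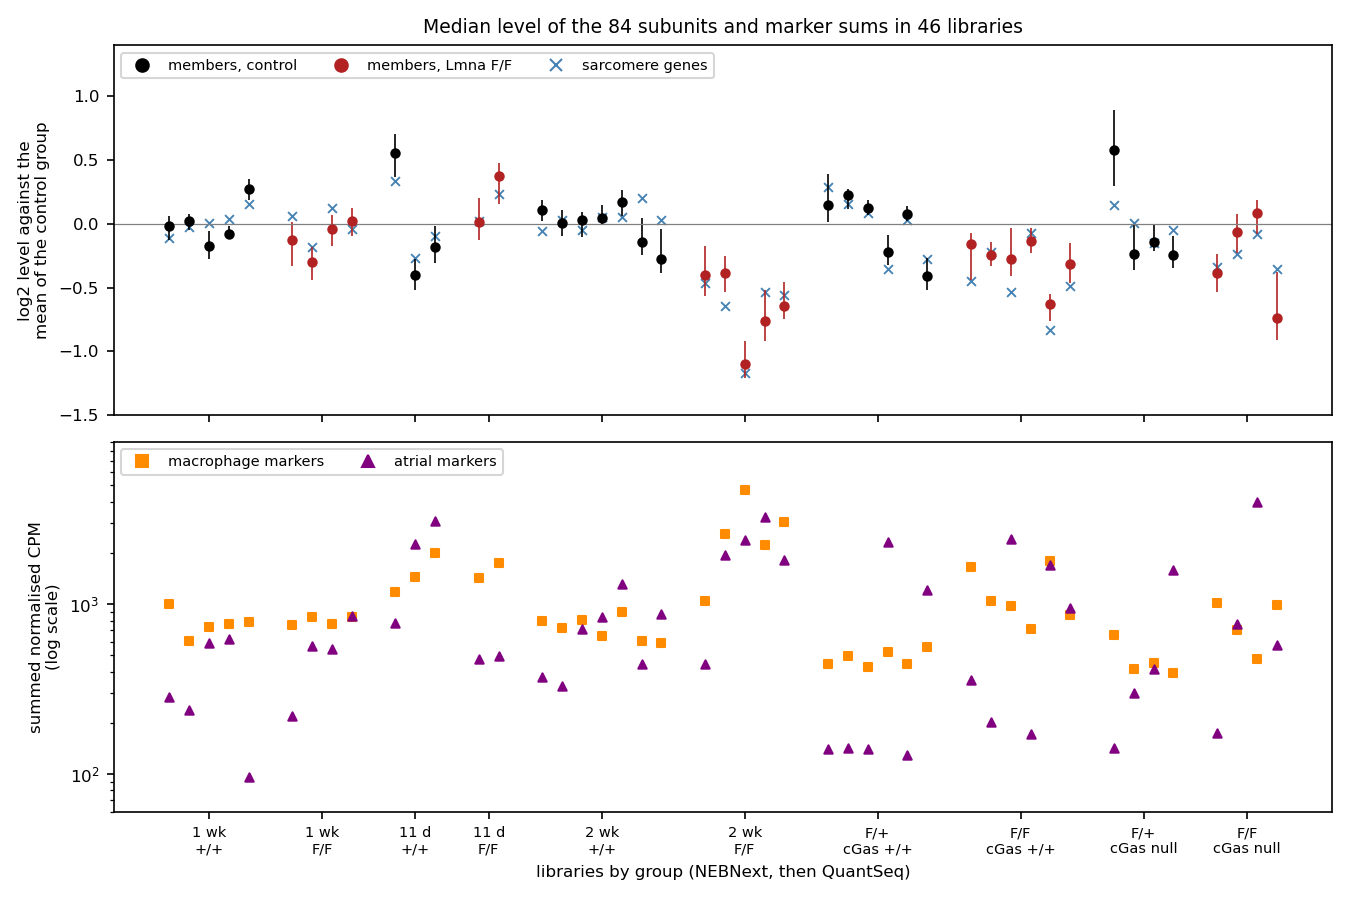
Upper panel: median log2 level of the 84 members in each library against the mean of its control group (points, with bars from the lower to the upper quartile of members) and the median of 18 sarcomere genes (crosses). Lower panel: summed normalised CPM of macrophage and atrial markers on a log scale. The 5 F/F libraries of 2 weeks lie between -1.10 and -0.39, below all 7 wild type libraries.

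Scaling and an atrial marker covariate moved the number of calls at 2 weeks. On library totals without TMM factors the median of all genes was 0.29, and 49 members were lower and 0 higher (all genes: 4373 higher and 822 lower, against 2537 and 2025). Deposited TPM gave 42 lower and 0 higher, with a median of all genes of 0.21 (5253 higher and 705 lower). The median of the members minus that of all genes was -0.64 with TMM, -0.65 on library totals and -0.52 on TPM. Atrial sums of F/F libraries (443 to 3250.4 CPM) overlapped with those of wild type (329.7 to 1308), and of 7 markers only Nppa, which stressed ventricles also make, was called. With the sum of the 7 markers added to the model (chosen once the data had been seen), 37 members were lower (median -0.46). The share of all genes called lower was then 6.42%. Nppa is part of that sum, and what the covariate reflects was not tested. In all, 34 members passed under 5 scalings or tools, without each of the 12 libraries in turn and with the atrial covariate: 19 of complex I, 3 of complex II, 3 of complex III, 5 of complex IV and 4 of complex V. They include Ndufs3, Ndufb10, Sdhb, Sdhd, Uqcrfs1, Cox6a2, Cox7a1, Cox8b, Atp5d and Atp5o. The share of all genes that passed the same set of fits is not given. The count of 34 therefore does not show whether members held up better than other genes.

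Other genes of the pathway moved beside the subunits at 2 weeks. Of 56 assembly factors of the 5 complexes, 40 were lower and 0 higher (median -0.47), among them Ndufaf3 for complex I (-0.68), Uqcc1 for complex III (-0.73) and Taco1 for complex IV (-0.81). Of 17 genes of ubiquinone synthesis and electron carriers 12 were lower (median -0.62), including Coq10a (-0.95), Coq5 (-0.83) and Coq8a (-0.84). Of 16 other mitochondrial membrane and import proteins 7 were lower (median -0.36), including Slc25a4, the ADP/ATP carrier of the inner membrane (-0.90). Among 18 regulators of mitochondrial genes 7 were lower and 2 higher. Perm1, Tfb1m and Esrrb had the smallest p (-1.16 ± 0.19, -0.80 ± 0.14 and -1.07 ± 0.20, edgeR adjusted p = 0.000105, 0.000156 and 0.000338). Nrf1, Yy1 and Gabpa, whose motifs are described above, did not pass (0.12 ± 0.14, 0.25 ± 0.14 and 0.18 ± 0.18, named for those motifs after their values were seen).

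The mitochondrially encoded subunits did not pass beside the nuclear ones. Of the 13 mRNAs, 7 passed the filter on low counts in NEBNext, and why the others did not was not tested. Of those 7, 0 were called (median -0.21, edgeR, 1 at an unadjusted p under 0.05). The share of mitochondrially encoded genes in all counts, 8.30 to 22.7% in F/F, spanned the wild type range of 11.1 to 19.0%. F/F replicate 1 held the highest value. Sarcomere genes, which share the cardiomyocyte as their source, fell by a like amount: 15 of 18 were lower, with a median of -0.63. The summed members divided by the summed sarcomere genes was 0.584 to 0.635 for F/F against 0.576 to 0.656 for wild type, so that the F/F range lay inside that of wild type.

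**Figure D4:**
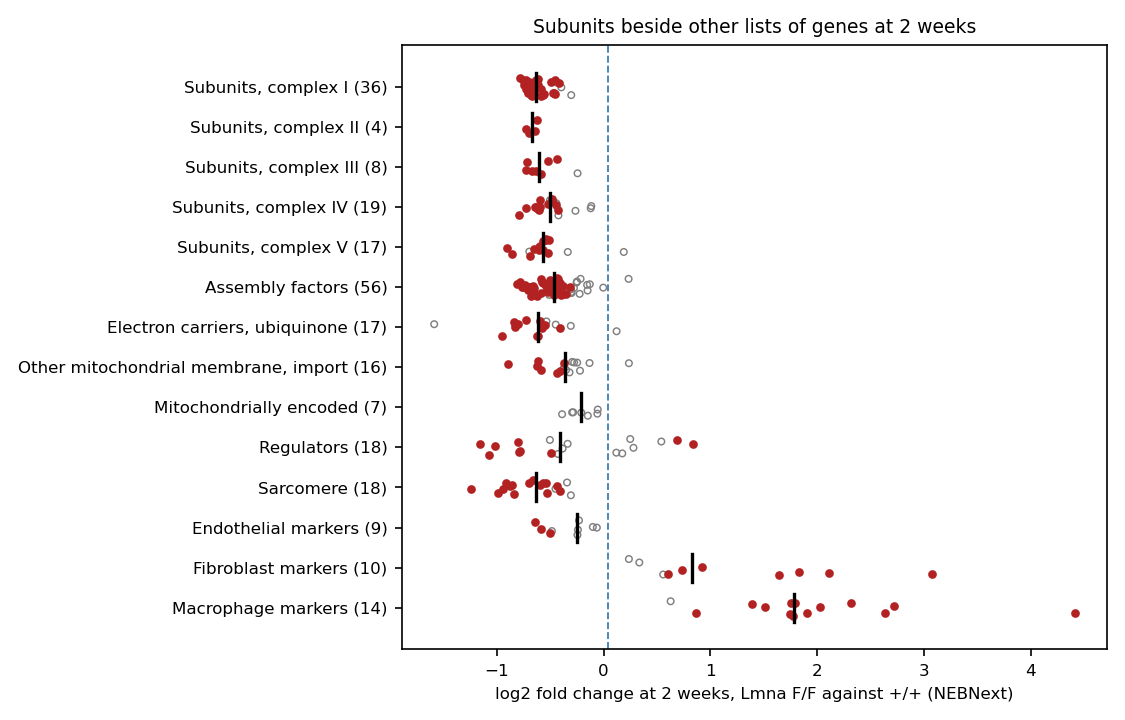
Log2 fold change at 2 weeks (F/F against wild type, NEBNext) of the members by complex and of other lists, with the number of genes tested in brackets. Filled red points passed edgeR at an adjusted p under 0.05, black bars are medians and the dashed line is the median of all genes tested. Subunits, assembly factors, electron carriers and sarcomere genes have medians between -0.67 and -0.47, macrophage markers 1.78.

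At 1 week, 0 of 84 members passed by edgeR, where 0.0256% of all genes tested did. DESeq2 also called 0, and 1 member had an unadjusted p under 0.05. The median was -0.09, and it was 0.07 on library totals and 0.09 on deposited TPM, where the medians of all genes were 0.15 and 0.10, and it was 0.02 without wild type replicate 5, so its sign depended on these choices. Ndufs3 was at 294, 245, 310.2 and 265 CPM in F/F and 263, 319, 294, 299 and 329 in wild type. Cox7a1 was at 1525, 1358, 1801 and 1885 CPM in F/F and 1709.5, 1659, 1314, 1578 and 2060.0 in wild type. The groups overlapped for both genes, with log2 fold changes of -0.08 ± 0.14 and 0.01 ± 0.17. The 95% intervals of the members reached a median of 0.32 to either side.

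At 11 days, 0 members passed by edgeR (2 libraries labelled F/F, 3 wild type), and 0% of all genes did. DESeq2 called 0 members, with 5 genes higher and 26 lower in all, and 1 member had an unadjusted p under 0.05. The median was 0.12. Without wild type replicate 1, the library that stood apart, 14 members were higher and the median was 0.42, where 114 of 15674 genes were higher and 121 lower. It was -0.03 without wild type replicate 2 and -0.07 with the atrial covariate. Atrial markers summed to 779.7 CPM in wild type replicate 1, 2248 and 3091 in the other wild type libraries and 478 and 495 in those labelled F/F, and their part in the result was not tested. Cox7c and Atp5l were the only members whose groups did not overlap, both lower in labelled F/F (2 of 84 members, against 11% of all genes). With 2 against 3 libraries the smallest p of a two-sided exact permutation test is 0.2, the value of both genes.

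The fold change between F/F and wild type was lower at 2 weeks than at 1 week for 15 members by the test of that difference, where 5.88% of all genes tested were lower. The median difference between the effects was -0.51 over the members and 0.04 over all genes. Atp5md had the smallest p. At 1 week it was at 33.6, 15.998, 27.5 and 23.4 CPM in F/F and 19.4, 26.5, 10.4, 18.9 and 20.1 in wild type, groups that overlapped. Its fold change went from 0.47 ± 0.22 at 1 week to -0.86 ± 0.20 at 2 weeks (difference -1.33 ± 0.30, edgeR adjusted p = 0.00613). Cox7a1 and Ndufs3 followed, at -0.80 ± 0.23 and -0.67 ± 0.19 (edgeR adjusted p = 0.0259 and 0.0225). The number of members was unsteady. It was 1 without wild type replicate 6 of 2 weeks, 2 without F/F replicate 3 of either time, 4 without F/F replicate 2 of 2 weeks, and 6 to 9 without 1 of 7 other libraries at a time: wild type replicates 1, 2 and 4 and F/F replicates 1 and 4 of 1 week, and wild type replicate 7 and F/F replicate 4 of 2 weeks. It rose to 31 without F/F replicate 1 of 2 weeks and 33 without wild type replicate 5 of 1 week. Shares of all genes called are not given for these fits. The numbers therefore do not show whether members moved apart from other genes. Time and sequencing pool coincide outside 2 weeks, so they cannot be told apart in levels, although each effect was taken within its own time.

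In the QuantSeq libraries with cGas, F/F hearts had lower values of nearly all members at 2 weeks, but no member passed. By edgeR 0 of 84 were called, where 4.63% of the 14812 genes tested were (0.891% lower), and 20 members had an unadjusted p under 0.05. DESeq2 called 8 lower, where it called 1.94% of all genes lower. The fold change was below 0 for 83 members, with a median of -0.31 against -0.01 for all genes, and the medians by complex were -0.32, -0.39, -0.24, -0.28 and -0.36 for complexes I to V. Sdhc had the smallest p. It ran from 131 through 188 to 239 CPM in F/F and from 225 through 258 to 335 in F/+, with overlapping groups (log2 fold change -0.52 ± 0.16, 95% interval -0.83 to -0.21, edgeR adjusted p = 0.0603). Cox4i2 ran from 1.34 through 1.94 to 3.41 CPM in F/F and from 3.11 through 3.22 to 3.67 in F/+. A single F/F library lay inside the F/+ range (-0.65 ± 0.20, edgeR adjusted p = 0.0642). Uqcrfs1 followed at -0.42 ± 0.14 (edgeR adjusted p = 0.0836).

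Atrial markers varied more than the members within these groups. They summed to 129.8 to 142 CPM in 4 F/+ libraries with cGas and to 2324 and 1206 in replicates 4 and 6, where the members summed to 64708 and 55041 against 77691 to 85599 in the other 4. In F/F libraries atrial sums ran from 172 to 2432 CPM. With the atrial sum as a covariate the median member was at -0.16, and 0 members were called. Leaving out single libraries gave 0 to 4 members, 4 without F/F replicate 4 and 3 without F/+ replicate 6, where 2.51% and 1.47% of all genes were lower. Macrophage markers were higher in F/F here too, at 12 of 14, with sums of 714 to 1790.4 CPM against 429 to 557. Of all genes tested, 4.63% passed in either direction. Endothelial sums were lower on average, at 672 CPM in F/F (549 to 783) against 817 in F/+ (725 to 931), and overlapped. Of 18 sarcomere genes 0 passed (median -0.42). Controls differ between the kits, F/+ here and +/+ in NEBNext, and the difference between the kits was not tested.

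Without cGas, the difference between F/F and F/+ hearts shrank when F/+ replicate 1 or F/F replicate 4 was left out. By edgeR 0 of 84 members passed, where 0.527% of all genes tested did, and 8 had an unadjusted p under 0.05. DESeq2 called 0. The median was -0.35, and it was -0.10 without F/+ replicate 1, the library with the high sums, and -0.21 without F/F replicate 4, the one with the lowest sum. All 4 F/+ hearts without cGas were male, and with only the 8 libraries without cGas in the fit the median was -0.62. Cox7a2 was at 1010.1, 1879.6, 1646 and 726 CPM in F/F and 2612, 1305, 1443 and 1219 in F/+. Replicate 1 of F/+ stood alone at the top and the rest overlapped (log2 fold change -0.60 ± 0.26, edgeR adjusted p = 0.415). Sdha was 1 of 3 members whose groups did not overlap, all lower in F/F, against 2.23% of all genes (exact two-sided permutation p = 0.0286, the smallest that 4 against 4 libraries allow, and edgeR did not call it).

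No dependence on cGas passed for any member. The difference between the Lmna effects without and with cGas had a median of -0.03 over the members, 0 passed by edgeR or DESeq2, and 0 had an unadjusted p under 0.05, where 0% of all genes tested were called. The 95% intervals, which are not adjusted for the number of genes, reached a median of 0.65 to either side. Calls after adjustment need more than that, and the highest difference, 0.88, did not pass. A dependence of such a size could therefore be missed. The median turned to 0.21 without F/+ replicate 1. Cox6c2, Cox7b and Atp5g2 had the smallest p, at -0.62 ± 0.31, -0.45 ± 0.30 and 0.54 ± 0.38 (edgeR adjusted p = 0.999847 for each). Nor did a member pass between cGas null and cGas +/+ hearts within F/+ or within F/F (0 by edgeR and DESeq2, with 2 and 0 members at an unadjusted p under 0.05, where edgeR called 0% of all genes in both). Sdhd spread widely: it was at 27.2, 89.2, 99.1 and 106 CPM in F/+ without cGas and ran from 70.4 through 119 to 217 with it. A single library in each of the F/+ and F/F groups without cGas was low, at 27.2 and 16.7 CPM, and the groups overlapped (log2 fold change in F/+ -0.92 ± 0.50, 95% interval -1.90 to 0.05, edgeR adjusted p = 0.993).

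The kits did not count all members alike. For 75 of 84 members the mean CPM in the 2 kits lay within 5 times of each other. Cox7c, a small subunit of complex IV, was at 9.84 CPM in NEBNext and 2235 in QuantSeq, and Atp5md at 35.6 and 1299, Atp5g1 at 53.1 and 1000.4, Atp5l at 1.51 and 22.7 and Atp5g2 at 0.289 and 3.68. These 5 were over 10 times higher in QuantSeq. In the other direction Sdhd, Atp5b, Cox4i2 and Ndufa4l2 were over 5 times higher in NEBNext. QuantSeq counts a tag per transcript and NEBNext reads cover its length, and the sources used here do not state whether reads shared with pseudogene copies were kept. Values of Cox7c, Atp5md, Atp5g1, Atp5l and Atp5g2 in NEBNext are therefore uncertain, and Cox7c, not passed in NEBNext at 6.94 ± 2.36 CPM in wild type, was at -0.17 ± 0.18 in QuantSeq, where it was abundant (edgeR adjusted p = 0.639).

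**Figure D5:**
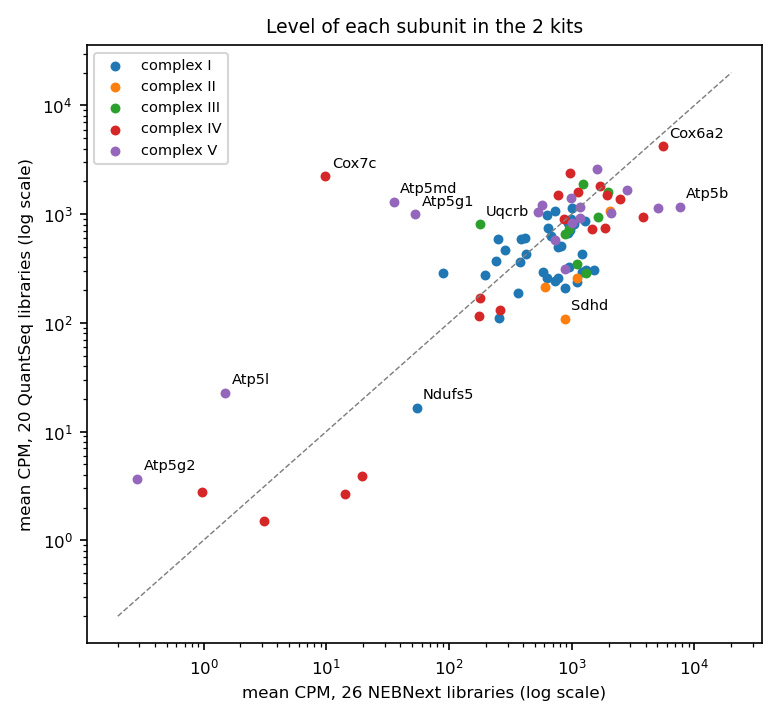
Mean CPM of each member over 26 NEBNext libraries (horizontal) and 20 QuantSeq libraries (vertical), both on log scales, coloured by complex, with a dashed line of equal values. Cox7c, Atp5md, Atp5g1, Atp5l and Atp5g2 lie over 10 times above the line, and Sdhd and Atp5b over 5 times below it.

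Per length, the members spanned a wide range in wild type hearts. Averaged over the wild type libraries of all 3 times by deposited TPM, Cox6a2 was highest at 12510.5, and of complex IV Cox8b was at 8049 and Cox4i1 at 7457. The highest of complex V were Atp5b at 6023 and Atp5g3 at 5985, of complex III Uqcrh at 3355 and Uqcr10 at 3265, of complex I Ndufa3 at 2807 and Ndufb10 at 2780, and of complex II Sdhb at 2768. Cox6a2 led at each time, while the order of Cox8b and Cox4i1, and of the 2 genes given for complexes I, III and V, differed between times. The isoforms Cox4i2 and Ndufa4l2 were at 29.4 and 29.0 TPM and Cox6b2 at 7.99, so subunits of 1 complex differed widely in mRNA level.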

How the data were processed

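Poly(A) RNA of whole hearts was sequenced with NEBNext (26 libraries) and QuantSeq 3′ kits (20 libraries), per the labels. The authors deposited whole-number counts per gene and, beside them, TPM values. The QuantSeq columns of the deposited TPM table hold CPM and were not used. The submitters' processing notes list STAR 2.7.9 and the build mm39. Counter, annotation and strand setting: not given in the sources used here. Every value column was matched to a library by its title.

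The kits were analysed separately from the deposited counts with edgeR 4.0.16 in R 4.3.3: TMM factors, a filter on low counts (minimum 10), quasi-likelihood tests and Benjamini-Hochberg adjustment over all genes tested (calls at an adjusted p under 0.05). Sex was a covariate in both kits, with sequencing pool at 2 weeks in NEBNext. Normalised CPM use the TMM factors, and 95% intervals are 1.96 SE. The procedure was tested on simulated data. Of 100 genes changed by 0.6 on the log2 scale, 37 were recovered at 2 weeks in NEBNext and 29 in QuantSeq with cGas. Of 100 changed by 1.5, 100 and 99 were recovered. False calls were 7 and 4. Alternatives were DESeq2 1.42.0, other scalings, no filter, no covariates, fewer libraries, single pools, leaving out each library, and deposited TPM with limma 3.58.1 (pseudocounts 1 and 0.1). An atrial covariate was added after seeing the data. Single genes were also compared by two-sided exact permutation tests.

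Members and lists were chosen with earlier results of these data known. Members named by rule are, in each complex, the 2 with the highest TPM, the 3 of smallest p and the 1 of largest p at 2 weeks, the isoform pairs, and the 3 of smallest p in the QuantSeq comparisons and in differences between effects. Others are said to be named after their values were seen. A result of 1 member is not reported here.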

Additional observations from a re-analysis of the deposited data

Results flagged for a closer look

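In groups of 4 to 10 libraries, 112 sets of values were examined for a highest or lowest library far from the others (Dixon's ratio), and chance flags about 1 in 20 such groups. In F/+ hearts without cGas, replicate 1 stood far above the other 3 libraries in the summed normalised CPM of every complex: 31758 for complex I, 2577 for complex II, 12389 for complex III, 38837 for complex IV and 27867 for complex V. Cox7a2 was flagged in the same library, at 2612 CPM. Replicate 5 of wild type at 1 week stood above its group for complex III (11727) and complex IV (32359). Replicate 5 of F/F with cGas stood below its group for complex IV (13927) and complex V (12356). Replicate 3 of F/F at 2 weeks, the library with the highest macrophage markers, stood below its group for Ndufb10 (468 CPM) and Cox4i2 (6.31 CPM).

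The Lmna effect differed between 1 and 2 weeks, by the test of that difference, for 15 members. Among those of complex I were Ndufv1 (-0.84), Ndufs7 (-0.71), Ndufa3 (-0.69), Ndufs3 (-0.67), Ndufb10 (-0.63), Ndufb11 (-0.63) and Ndufb7 (-0.61). For complex III they were Uqcr11 (-0.79) and Uqcrc1 (-0.75), for complex IV Cox7a1 (-0.80) and Cox4i2 (-0.65), and for complex V Atp5md (-1.33), Atp5g1 (-1.14) and Atp5d (-0.58). These are differences of log2 fold changes, lower at 2 weeks, and no member of complex II passed.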

How the results depend on the processing

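No paired analysis was possible because replicate numbers were given in accession order and pair nothing. At 2 weeks no alternative called a member higher, and the 71 members lower became 37 with the atrial covariate (added after seeing the data), 42 and 41 on TPM (pseudocounts 1 and 0.1) and 16 in pool KIUC033 alone. Of all genes, 13% were lower in the main fit and 6.42%, 4.51%, 4.17% and 1.04% in these 4 alternatives. For the change from 1 to 2 weeks, the 15 members became 28 with DESeq2, 23 on library totals, 4 without covariates, 23 with only the libraries compared and 24 on TPM (pseudocount 1), and 1 to 33 when single libraries were left out. With cGas, 0 became 8 with DESeq2, 1 without a filter, 1 without covariates, 2 with only the libraries compared, and 0 to 4 without single libraries. The share of all genes with DESeq2 stands with the QuantSeq results above. Shares are not given for the fits without a filter, without covariates or with only the libraries compared. The cGas effect in F/+ gave 1 without a filter, and 11 days 0 to 14 members higher without single libraries.

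Signs turned at 2 weeks only for members that had not passed: Cox6a1 (0.14 on library totals, 0.17 and 0.17 on TPM), Cox7c (0.12, 0.15 and 0.16 likewise, and -0.25 to 0.045 when single libraries were left out), Uqcrb (0.040 and 0.040 on TPM), Ndufa4l2 (0.024 and 0.023 on TPM), Cox6c2 (0.027 with the atrial covariate) and Atp5l (-0.0084 in pool KIUC035). The cause was not tested. Low counts limit the precision of Atp5g2 and Atp5l in NEBNext (means 0.289 and 1.51 CPM).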

Other observations

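Of the members whose promoter window holds an NRF1 match, 13 of 17 were lower at 2 weeks (median -0.62), and of those without a match 47 of 51 were (median -0.60). All 10 members with a YY1 match were lower (median -0.62), as were 6 of 8 with an ERR match (median -0.57). These are descriptions of the 68 members with a window, with no test.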
